A study of Quercus suber with 11 samples.

Results

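The histone genes of cork oak (Quercus suber) were described across the cork growing season. They were taken as every locus of the deposited expression table whose best Arabidopsis hit was 1 of 43 listed histone genes, which gave 62 of the 32024 loci in the table and used 16 of the 43 Arabidopsis genes. Of these 62 loci, 51 reached the minimum level set for testing, a mean of log2 of 10, and 11 stayed below it. Innercork, the phellem and phellogen tissue on the inner side of freshly harvested virgin cork planks, came from 11 trees growing wild in a forest. It was sampled in April (4 trees), June (3 trees) and July (4 trees), 1 library of polyadenylated RNA per tree, with no treatment and no genetic modification in any group. The trees of the 3 months were different trees, so the month, the harvest and the individual trees cannot be told apart.

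Histones package DNA into nucleosomes. The core histones H3.1, H4, H2A and H2B are replication-dependent: in plants their genes are transcribed mainly during S phase, when newly made DNA has to be wrapped, and their transcripts, unlike most of those in animals, carry a poly(A) tail and are therefore captured in libraries of polyadenylated RNA. Variant histones replace core histones outside of replication or in particular regions. H3.3 is placed on transcribed genes, H2A.Z around transcription start sites, H2A.X is phosphorylated at DNA breaks and H2A.W is found in the heterochromatin of flowering plants. Linker histone H1 binds the DNA between nucleosomes. In cork, cells divide in the phellogen (the cork cambium) and then differentiate into phellem, which becomes suberized and dies.

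All values are regularized log (rlog) values, on the log2 scale, which the authors computed from the read counts. They are scaled per library but not per gene length, so a difference in level between 2 genes was not read as a result, and the locus with the highest or lowest mean of a class is named only to choose an example. Read counts cannot be recovered from these values, and read totals were not used here. A log2FC here subtracts the mean rlog of 1 month from that of another, and SE stands for its standard error. The moderated tests of limma were made over the 22426 loci that reached the minimum level, with Benjamini-Hochberg adjustment. A locus counted as a DEG where its absolute log2FC exceeded 1 at an adjusted p no higher than 0.01. The paper called DEGs with DESeq2 at these same thresholds, and in each comparison of 2 months it reports more of them than limma gave here over all loci. DEG counts below are thus those of limma on rlog values, and a lack of DEGs is not a result of the paper. A second, wider rule took every locus with an adjusted p no higher than 0.05, whatever its change. Since innercork is a bulk tissue, fewer cells of a type and less RNA per cell cannot be told apart.

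The tissue label was checked on suberin genes: 6 of the 7 loci of the suberizing phellem list had mean rlog values between 15.8 and 18.1, the 7th, LOC112034512, a homolog of CYP86B1, was at 0.54, and the only locus of the photosynthetic list, a homolog of LHCB2.1, was at -1.04. A pair of trees stood apart. April replicate 2 and July replicate 4 had the lowest weights when limma weighted the trees by their fit (0.26 and 0.397, against 0.755 to 1.96 in the other 9 trees), and 9 ribosomal RNA loci took 14.7% of the summed linear values in July replicate 4, against 1.98 to 9.26% in the other 10. Counts given below were therefore also made without these 2 trees, a choice made after the data were seen.

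The 62 loci comprised 38 replication-dependent loci (3 of H2A, 15 of H2B, 8 of H3.1 and 12 of H4), 18 variant loci (8 of H2A.W, 4 of H2A.X, 3 of H2A.Z and 3 of H3.3) and 6 loci of linker histone H1. Of the replication-dependent loci 29 were tested, of the variant loci 16 and of the H1 loci 6. The Arabidopsis names stand for a class rather than for single counterparts, because all 12 H4 loci had the same best hit (AT5G59970), all 8 H3.1 loci had HTR3 (AT3G27360) and all 3 H3.3 loci had HTR5 (AT4G40040). The classes rest on these best hits alone. Histone coding sequences within a class are nearly identical in plants, so reads could be split between copies, and a value of a single locus is uncertain for that reason.

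Matched by name to the RefSeq genes of the assembly Cork oak 2.0, 45 of 46 matched loci were protein-coding and 1, the H4 locus LOC112000814, was a pseudogene. The protein-coding replication-dependent loci had a median gene span of 700 bp (26 loci), and the variant loci a median of 1275 bp (14 loci). H3.1 genes spanned 661 to 700 bp, and the H2A.Z genes 4155 and 7437 bp. By the gene numbers in the deposited identifiers, 36 of the 62 loci had another histone locus with at most 5 gene numbers between them, in 16 small clusters that held 25 replication-dependent, 10 variant and 1 linker locus. One cluster held 3 H3.1 loci, LOC112020157, LOC112020128 and LOC112020130, and another 3 H4 loci, LOC112025293, LOC112025291 and LOC112025269.

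Over the season the replication-dependent histones had their lowest values in June. The month mean was lowest in June for 24 of the 29 tested loci (82.8%), against 32.1% of all loci tested, and highest in July for 20 (69%), against 27.9% of all loci. The variant histones were divided, with the lowest mean in June for 8 of 16 loci and in April for 7 (38.5% of all loci tested). Without April replicate 2 and July replicate 4, June was lowest for 22 of the 29 replication-dependent loci (29% of all loci) and for 6 of the 16 variant loci. No test was made between the replication-dependent and variant loci as groups.

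**Figure D1:**
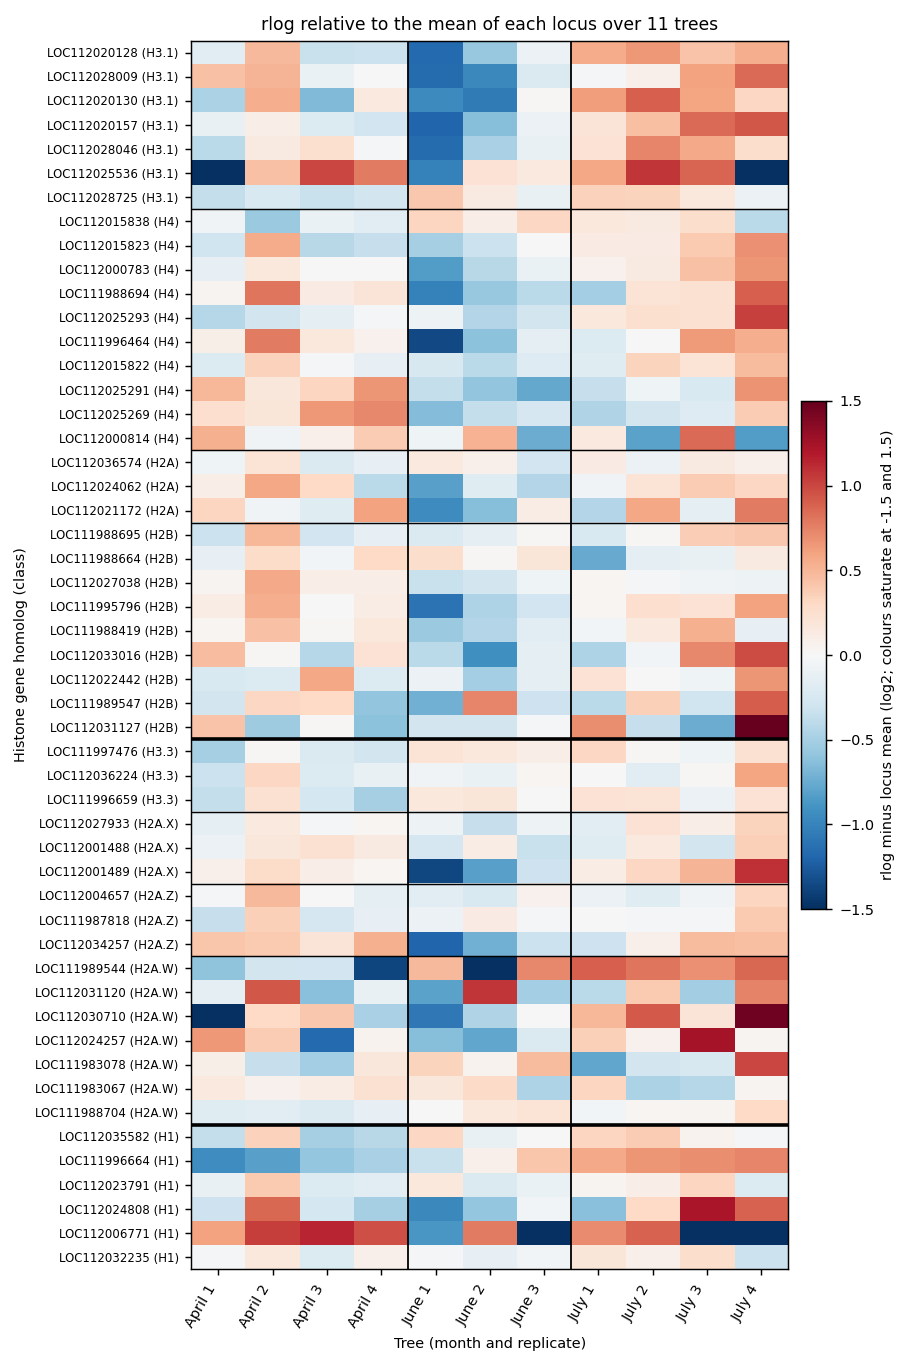
rlog of the 51 tested histone loci (rows, grouped by class) in each of the 11 trees (columns), as the difference from the mean of the locus over all trees; red is above and blue below that mean, on the log2 scale. Most rows of H3.1, H4, H2A and H2B are blue in the 3 June trees, while the 3 H3.3 rows are blue in 3 of the 4 April trees.

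The June/April comparison asked how the histone genes differed from the start of the growing season. No histone locus was a DEG in limma, against 1.46% of all loci tested, and 18 of the 51 had an unadjusted p under 0.05: 5 were higher (9.80%, against 14.2% of all loci) and 13 lower (25.5%, against 14.1%). By the wider rule 5 loci fell and 1 rose, that is 6 of 51, against 9.81% of all loci (4.23% lower and 5.57% higher). The 5 that fell were 2 H4 loci, 1 H2B locus, 1 H2A.X locus and 1 H2A.Z locus, and the 1 that rose encodes an H1. The share of 5 in 51 (9.80%) was above the share of lower calls over all loci. The count of 6 calls in either direction depended on the trees. It was 13 (25.5%) without April replicate 2 and July replicate 4, against 26.3% of all loci. With 1 tree left out in turn it was between 1 and 8, against 2.94 to 21.4% of all loci. At an unadjusted p under 0.05, 8 of the 51 were higher and 10 lower without the 2 trees that stood apart. Over all loci the shares were then 18.9% and 20.4%, so the share of lower histone loci was near that background.

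Below the threshold, most loci still lay on the lower side. The log2FC was negative in 38 of the 51 loci (52% of all loci tested) and in 25 of the 29 replication-dependent ones, whose median was -0.46 (a 0.729-fold ratio), against -0.02 over all loci tested. In 8 of the 29 all June trees lay below all April trees (27.6%, against 13% of all loci), and in 2 all lay above (13.9% of all loci). Without April replicate 2 and July replicate 4 it was again 8 of 29 below, against 24.1% of all loci, a share near that background. The 16 variant loci had a median of -0.10, with 9 negative. That median was 0.14 without April replicate 2, so its sign depended on this tree.

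July/June asked about the second part of the season. Again no histone locus was a DEG, and none passed the wider rule, as only 1 locus of the whole table did (0.00446%). At an unadjusted p under 0.05, however, 20 of the 51 histone loci were higher in July and 0 lower (39.2% and 0%), against 4.47% and 4.46% of all loci tested. Of these 20, 15 were replication-dependent, 4 were variant and 1 was an H1. In 14 of the 29 replication-dependent loci (48.3%) all 4 July trees lay above all 3 June trees, as in 5.11% of all loci, and in 0 below (5.58%).

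The median log2FC in July/June was 0.58 over the replication-dependent loci (26 of 29 positive, a 1.5-fold ratio), 0.15 over the variant loci (12 of 16 positive) and 0.00 over all loci tested. Without July replicate 4 the variant median was 0.003, with 8 of 16 positive. Without April replicate 2 and July replicate 4, July lay wholly above June in 16 of the 29 replication-dependent loci and wholly below in 1, against 10.1% and 10.2% of all loci. With 1 tree left out in turn, between 10 (without June replicate 1) and 17 (without July replicate 1) of the 29 were higher at an unadjusted p under 0.05. In these 2 fits 2.91% and 3.85% of all loci were higher.

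July/April shares its April trees with June/April. Here 1 histone locus was a DEG, the H1 locus LOC111996664, which rose (1 of 51, against 2.04% of all loci), and no further locus passed the wider rule (12% of all loci). An unadjusted p under 0.05 was reached by 11 loci with higher and 1 with lower values (14.8% and 15.2% of all loci). The median log2FC was 0.21 over the replication-dependent and 0.19 over the variant loci, against -0.02 over all, and without July replicate 4 these medians were 0.05 and 0.06. By the wider rule, 8 loci passed without April replicate 2 (15.7%, against 22.8% of all loci), 5 without July replicate 4 (9.8%, against 15%) and 12 without both (23.5%, against 28.2%).

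**Figure D2:**
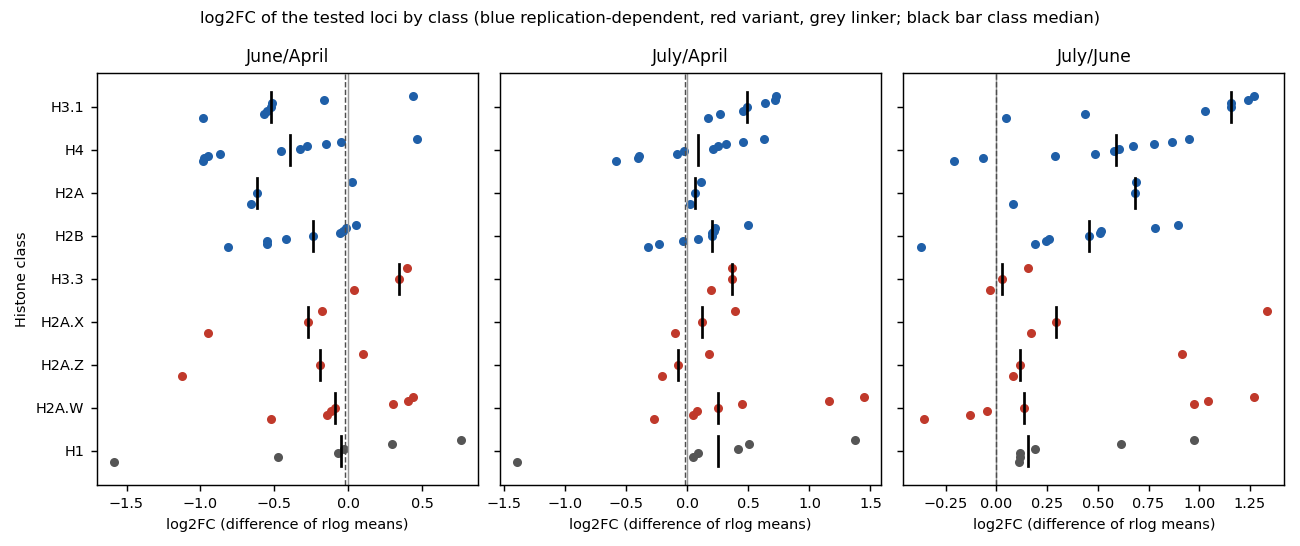
The log2FC of each tested histone locus (points) by class in June/April, July/April and July/June, with the class median as a black bar, 0 as a grey line and the median over all loci tested as a dashed line; replication-dependent classes are blue, variants red and H1 grey. In July/June the medians of H3.1 (1.15), H2A (0.69) and H4 (0.59) lie farthest right, and that of H3.3 (0.03) lies near 0.

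June was also set against the mean of April and July, a comparison added after the data were seen. It uses the same June trees as June/April and July/June and is not independent of them. No histone locus was a DEG (0.00446% of all loci) and none passed the wider rule (0.513%). By that rule 3 loci passed without April replicate 2 (5.88%, against 4.52% of all loci), 4 without both trees that stood apart (7.84%, against 7.87%) and 9 with trees weighted by their fit (17.6%, against 7.27%). At an unadjusted p under 0.05, 17 of the 51 were lower in June (33.3%) and 0 higher, against 7.5% and 8.63% of all loci tested, and 15 of the 17 were replication-dependent. Without both trees 17 were lower and 4 higher, against 13.4% and 13.3% of all loci. All June trees lay below all other trees in 6 loci (11.8%, against 1.75% of all loci) and above them in 0 (2.08%). The log2FC was negative in 41 of the 51 (51.4% of all loci), with a median of -0.53 over the replication-dependent and -0.13 over the variant loci.

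H3.1 is the histone H3 that the chaperone CAF-1 places on DNA behind the replication fork, and its loci had the largest class median in July/June. All 7 tested H3.1 loci had a higher mean in July than in June. All 7 had the highest mean of the 3 months in July, against 27.9% of all loci. In 5 of them (71.4%, against 5.11% of all loci) all July trees lay above all June trees. The class median was 1.15 in July/June (a 2.23-fold ratio), -0.52 in June/April and 0.49 in July/April. No H3.1 locus passed either rule.

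The H3.1 locus with the highest mean, LOC112020128, had rlog values of 9.76, 10.36 and 10.84 in June, against 10.76, 11.41, 10.60 and 10.60 in April. In July the same locus had 11.48, 11.58, 11.36 and 11.48. The 4 July trees were close together and above every June tree, whereas June replicate 3 reached the level of April. The log2FC was 1.15 (SE 0.25, limma adjusted p = 0.256) in July/June and -0.52 (SE 0.25, adjusted p = 0.206) in June/April.

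Its neighbour LOC112020130 had the highest July/June log2FC of the class, with rlog values of 10.94, 11.21, 10.91 and 10.62 in July, against 9.36, 9.25 and 10.33 in June. Again all July trees lay above all June trees and June replicate 3 was the highest of its month. The log2FC was 1.27 (SE 0.33, adjusted p = 0.307). The April trees ranged from 9.65 to 10.85 and overlapped with both later months. The third member of this cluster, LOC112020157, gave a July/June log2FC of 1.24, again with no overlap.

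LOC112028009, an H3.1 locus of a different cluster, had rlog values of 9.60, 9.78 and 10.54 in June, against 11.19, 11.26, 10.65 and 10.74 in April, and 10.73 to 11.61 in July. All June trees lay below all trees of the other months. The June/April log2FC of -0.99 (SE 0.28) was the most negative of the replication-dependent loci and missed the wider rule (adjusted p = 0.0524).

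LOC112028725, the tested H3.1 locus with the lowest mean (3.76), had 3.40 to 3.54 in April, 3.65 to 4.17 in June and 3.68 to 4.10 in July, a level at which rlog shrinks values toward the mean of the locus. LOC112025536 varied most among trees, between 4.62 and 8.06 in April and between 5.40 and 8.13 in July.

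H4, which pairs with every form of H3 in the nucleosome, had 2 loci that fell in June/April. LOC112025291 had rlog values of 8.20, 7.96 and 7.79 in June, against 9.05, 8.72, 8.88 and 9.21 in April, and fell by 0.98 on the log2 scale (SE 0.24, adjusted p = 0.0311). All June trees were below all April trees and also below all July trees (8.21 to 9.23), though June replicate 1 and July replicate 1 were nearly level. Its neighbour LOC112025269 had 5.93, 6.23 and 6.33 in June, against 6.84, 6.77, 7.23 and 7.30 in April, and fell by 0.87 (SE 0.24, adjusted p = 0.0480). June and April did not overlap in it, and the July trees (6.14 to 6.96) reached into the range of both. With 1 tree left out in turn, LOC112025291 stayed called in 5 of 11 fits and LOC112025269 in 3 of 11.

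The H4 class as a whole had a median log2FC of -0.39 in June/April (9 of 10 negative) and 0.59 in July/June (8 of 10 positive). July lay above June with no overlap in 5 of the 10 loci (50%, against 5.11% of all loci). The locus with the highest mean, LOC112015838, ran the other way: it had 12.55, 12.33 and 12.54 in June, against 12.18, 11.67, 12.14 and 12.06 in April, a log2FC of 0.46 (SE 0.18, adjusted p = 0.120). The June trees were above all April trees, but within the range of July (11.82 to 12.49) for 1 of the 3. In the RefSeq table its gene spans 7144 bp, against a median of 570 bp for the 9 protein-coding H4 loci, so it is unlike the other H4 genes in length as well. The annotated pseudogene LOC112000814 had values between 4.04 and 5.73 with no order by month.

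H2A and H2B enter the nucleosome as pairs with each other. Of 3 canonical H2A loci, the one with the highest mean, LOC112036574, stayed in a narrow range in every month (10.96 to 11.38 in April, 10.89 to 11.32 in June, 11.08 to 11.30 in July), with a July/June log2FC of 0.08 (SE 0.14). The other 2, LOC112024062 and LOC112021172, had July/June values of 0.69 each and June/April values of -0.62 and -0.66, and neither passed the wider rule.

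Among the 9 tested H2B loci, 8 had their lowest mean in June (88.9%, against 32.1% of all loci). LOC111995796 had rlog values of 8.44, 9.09 and 9.26 in June, against 9.66, 10.10, 9.55 and 9.66 in April, and it fell by 0.81 (SE 0.22, adjusted p = 0.0445). In July it had 9.58 to 10.16, and all June trees lay below all trees of the other months. The call held in 2 of 11 fits with 1 tree left out. LOC111988695, the H2B locus with the highest mean, overlapped between all months, with 13.15 to 13.98 in April, 13.26 to 13.50 in June and 13.25 to 13.89 in July. LOC111988664 had the lowest July/June log2FC of all histone loci, -0.37 (SE 0.20, adjusted p = 0.642), with 11.52 in July replicate 1 and 12.14 to 12.41 in the other July trees, against 12.30 to 12.54 in June.

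**Figure D3:**
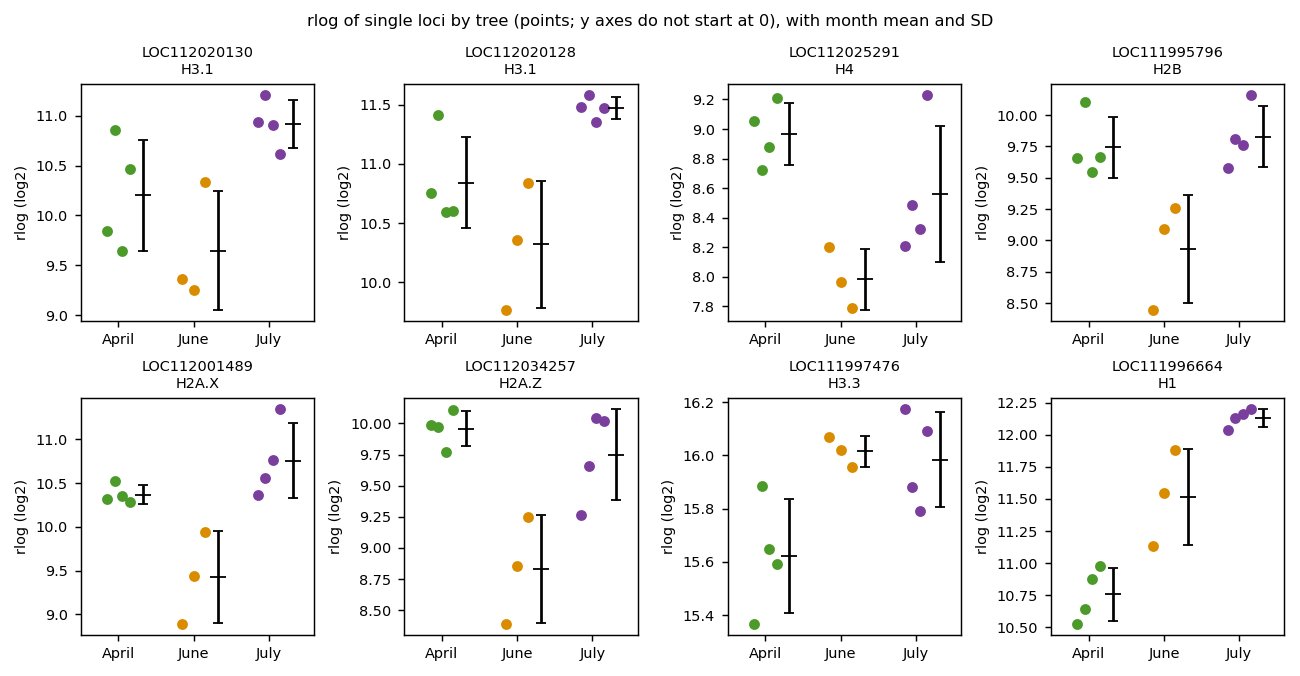
rlog of 8 histone loci in every tree (points) in April, June and July, with the mean and SD of each month (black; n = 4, 3 and 4 trees); axes differ between panels and do not start at 0. The H4, H2B, H2A.X and H2A.Z loci and both H3.1 loci have their lowest points in June, the H3.3 locus LOC111997476 has its lowest in April, and the H1 locus LOC111996664 is ordered April, June, July with no overlap.

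Variant H3.3, which the HIRA complex places independently of replication, had its lowest mean in April in all 3 loci (38.5% of all loci). LOC111997476, with the highest mean of any histone locus, had 16.07, 16.02 and 15.96 in June, against 15.37, 15.88, 15.65 and 15.59 in April, a log2FC of 0.39 (SE 0.16, adjusted p = 0.138). All June trees were above all April trees, and July replicates 1 to 4 had 16.17, 15.88, 15.79 and 16.09. The July/June log2FC was -0.03 (SE 0.16). LOC112036224 and LOC111996659 gave July/June values of 0.16 and 0.03. In the same comparison the 7 H3.1 loci lay between 0.05 and 1.27, and the difference between the classes was not tested.

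H2A.X had 3 tested loci, all with the lowest mean in June (32.1% of all loci). LOC112001489 had rlog values of 8.89, 9.44 and 9.94 in June, against 10.32, 10.52, 10.35 and 10.28 in April, and fell by 0.95 (SE 0.26, adjusted p = 0.0488). It had 10.36, 10.56, 10.76 and 11.35 in July, all above the June trees, and its July/June log2FC of 1.33 (SE 0.26, adjusted p = 0.256) was the highest of all histone loci. The June/April call held in 11 of 24 alternatives, among them 3 of the 11 fits with 1 tree left out. The neighbouring locus LOC112001488 had smaller differences, with a log2FC of -0.28 (SE 0.17) in June/April and 0.17 (SE 0.17) in July/June. LOC112027933, the H2A.X locus with the highest mean, had 11.79 to 12.07 in April, 11.57 to 11.84 in June and 11.76 to 12.26 in July, and its months overlapped.

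H2A.Z is exchanged into nucleosomes by the SWR1 complex. LOC112034257, whose best hit was HTA11, had rlog values of 8.39, 8.86 and 9.25 in June, against 9.99, 9.97, 9.77 and 10.11 in April, and fell by 1.13 (SE 0.23, adjusted p = 0.0172). It was the largest fall among the histone loci called, a 0.458-fold ratio, and missed the DEG rule by its adjusted p alone. The July trees had 9.27, 9.66, 10.05 and 10.02, so June lay below both other months. The call held in 21 of 23 alternatives and in 9 of 11 fits with 1 tree left out. The 2 loci with best hit HTA9 had smaller differences: LOC112004657 had a June/April log2FC of -0.19 (SE 0.17) and LOC111987818 of 0.10 (SE 0.17).

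The H2A.W loci varied widely among trees, with a median SD of 0.52 in April, 0.40 in June and 0.55 in July over the 7 tested loci, against 0.28, 0.26 and 0.30 over all 51. LOC111989544 had 11.10, 11.01, 10.89 and 11.07 in July, against 9.60, 9.93, 9.92 and 8.83 in April, the highest July/April log2FC of all histone loci (1.45, SE 0.50, adjusted p = 0.0846). All July trees lay above all April trees, but the June trees were split, with 10.69 and 10.93 in replicates 1 and 3 and 8.30 in replicate 2. LOC112030710 had 9.70 to 10.96 in July, against 8.43 to 9.51 in June, a log2FC of 1.27 (SE 0.51, adjusted p = 0.498), and 7.73 to 9.91 in April. Its July trees were above every June tree, while its April trees covered a wide range. LOC111983078 had its highest July value in replicate 4 (8.76, against 6.98 to 7.52 in the other July trees), with 7.81 to 8.23 in June.

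Linker histone H1 held the only DEG among the histone loci. LOC111996664 was the 1 locus whose best hit was H1.3, the Arabidopsis H1 that is induced by drought and low light in that species. It had rlog values of 12.03, 12.13, 12.16 and 12.20 in July, against 10.53, 10.64, 10.88 and 10.98 in April, with 11.13, 11.54 and 11.88 in June. The 3 months did not overlap and the 4 July trees lay close together. The locus rose by a log2FC of 1.37 (SE 0.16, adjusted p = 0.00104) in July/April, a 2.59-fold ratio, and by 0.76 (SE 0.17, adjusted p = 0.0230) in June/April. The July/April call held in 24 of 24 alternatives, with a log2FC between 1.3 and 1.45, and the June/April call in 19 of 24, among them 8 of the 11 fits with 1 tree left out. The July/June log2FC was 0.61 (SE 0.17, adjusted p = 0.329).

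The other 5 H1 loci had best hit H1.2, a main H1 of Arabidopsis, and none passed either rule. LOC112035582 had 13.07 to 13.21 in 3 April trees and 13.91 in April replicate 2, then 13.46 to 13.88 in June and 13.53 to 13.95 in July. LOC112023791 stayed between 10.76 and 11.37 over all trees and LOC112032235 between 4.48 and 5.07. LOC112024808 had 7.88 to 9.23 in April, 7.40 to 8.33 in June and 7.74 to 9.60 in July, so its months overlapped.

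LOC112006771 was unlike the rest: it had values of 6.70 to 7.24 in every April tree, but 4.25 in June replicate 3, 4.45 in July replicate 3 and 4.33 in July replicate 4, against 6.87 in June replicate 2 and 6.80 and 6.98 in July replicates 1 and 2. June replicate 1, at 5.22, lay between. Trees of the same month were thus split between high and low values, and its log2FC of -1.58 in June/April, the lowest of all histone loci, had an SE of 0.76 and did not pass either rule.

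The trees of a month were not alike. In the median over the 29 replication-dependent loci of the rlog minus the locus mean, the April trees had -0.06, 0.28, -0.01 and -0.01, the June trees -0.55, -0.41 and -0.13, and the July trees 0.03, 0.14, 0.26 and 0.55. June replicate 3 thus lay nearest to April, and it held the highest June value in 18 of the 29 loci. The 2 trees that stood apart were also the highest of their months: April replicate 2 held the highest April value in 17 of the 29 loci and July replicate 4 the highest July value in 17. The same was so for the variants, in 9 and 11 of 16 loci. July replicate 4 was also the tree with the most ribosomal RNA, and the part of this in its histone values was not tested.

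**Figure D4:**
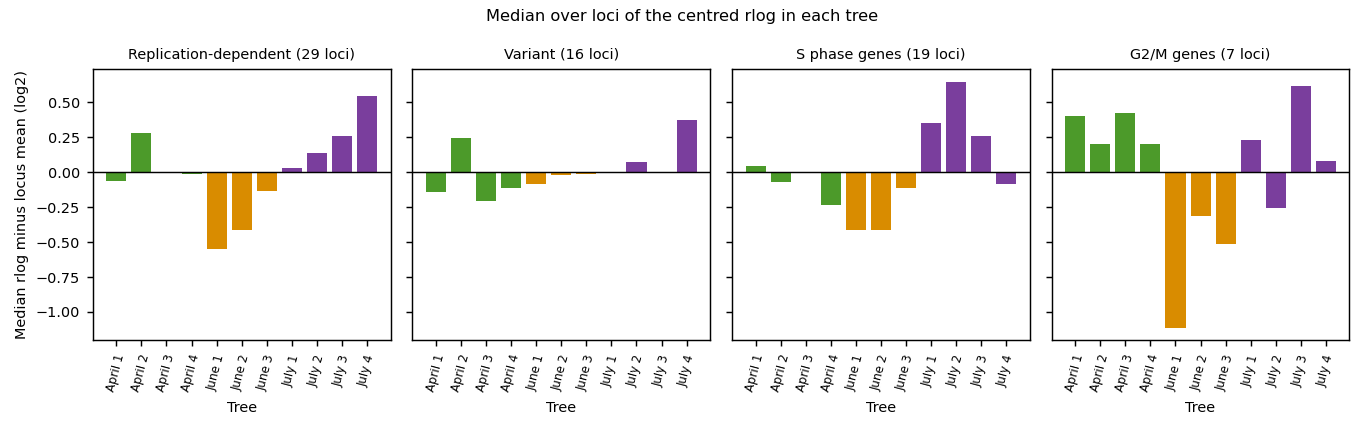
Median over loci of the rlog minus the mean of each locus, in each of the 11 trees (bars; April green, June orange, July purple), for the replication-dependent histones, the variant histones and the lists of S phase and G2/M genes. The June bars lie below 0 in all 4 panels but reach only -0.08 for the variants, against -0.55 for the replication-dependent histones and -1.12 for the G2/M genes.

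Genes that work with histones were read from lists of Arabidopsis genes. In the list of S phase genes (replication helicase, PCNA, ribonucleotide reductase and their regulators) 19 loci were tested, with a median log2FC of -0.17 for June/April, 0.37 for July/April and 0.59 for July/June. None passed the wider rule in June/April or July/June. At an unadjusted p under 0.05, 10 of the 19 were higher in July than June (52.6%, against 4.47% of all loci). The July trees were not ordered as for the histones. July replicate 4, the highest July tree in 17 of the 29 replication-dependent loci, was the lowest in 13 of the 19 S phase loci and the highest in 0. Its median centred rlog was -0.09 for the S phase genes, against 0.26 to 0.65 in the other July trees. In July/April 2 of the 19 rose by the wider rule, against 6.31% of all loci. LOC112005137, a homolog of the ribonucleotide reductase gene TSO2, rose by 0.98 (SE 0.20, adjusted p = 0.013). LOC112007744, a homolog of the helicase gene MCM7, rose by 0.89 (SE 0.18, adjusted p = 0.0135).

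The 7 tested G2/M loci had a median log2FC of -1.04 in June/April, and 4 of them fell by the wider rule (4.23% of all loci). LOC112002890 and LOC112002888, homologs of the mitotic cyclin gene CYCB1;2, fell by 1.2 (SE 0.25) and 1.04 (SE 0.28). LOC112030811, a homolog of CYCB1;3, fell by 1.1 (SE 0.25), and LOC111996203, a homolog of the cytokinesis syntaxin KNOLLE, by 1.09 (SE 0.31). A different homolog of CYCB1;3, LOC112030793, had a log2FC of 1.03 (SE 0.38) and did not pass (adjusted p = 0.11), though all its June trees lay above all April trees. The July/June median of the list was 0.70, with none past the wider rule. At an unadjusted p under 0.05, 5 of the 7 loci were higher (71.4%, against 4.47% of all loci). A locus outside the 62, LOC112036503, is a homolog of the centromeric histone CENH3, which is loaded on centromeres, and it fell by 0.66 in June/April (SE 0.18, adjusted p = 0.0480). Its log2FC was -0.53 in July/April, where it did not pass the wider rule though all July trees lay below all April trees (8.78% of all loci). In July/June it was 0.13.

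Of the histone chaperones and chromatin assembly factors 26 loci were tested, and their medians were near 0 (-0.13 for June/April, 0.15 for July/April and 0.11 for July/June). In June/April LOC111998306, a homolog of MSI1, a subunit of CAF-1 and of Polycomb complexes, rose by 0.56 (SE 0.14), and LOC112007004, a homolog of the FACT subunit SPT16, rose by 0.71 (SE 0.16). Both were also higher in July/April, by 0.56 and 0.79, as was LOC112025958, a homolog of the H2A-H2B chaperone NAP1;2, by 0.48 (SE 0.12). By the wider rule 2 of the 26 rose in June/April (5.57% of all loci) and 3 in July/April (6.31% of all loci).

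LOC111996871, 1 of 2 homologs of the NAP1-related chaperone NRP2, was a DEG in both comparisons with April. It had 6.77, 7.51 and 7.45 in June and 7.36 to 8.03 in July, against 8.78 to 9.03 in April, and fell by 1.66 in June/April (SE 0.22, adjusted p = 0.0026) and by 1.17 in July/April (SE 0.20, adjusted p = 0.0064). The other homolog, LOC112039349, had a log2FC of -0.15 and 0.16. Homologs of the large subunits of CAF-1 were named after their values were seen: FAS1 (LOC112007281) had 8.19 to 8.64 in July, against 7.29 to 7.82 in June, and FAS2 (LOC111997346) had 8.24 to 8.96 in July, against 7.89 to 8.08 in June. Neither pair of months overlapped, and neither locus passed the wider rule. Over the 26 tested loci of the list, July lay wholly above June in 3 (11.5%, against 5.11% of all loci). The July/June log2FC was negative in 7 of the 26.

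Marker genes of the cell types that innercork can hold also moved between the months. Of the 7 tested meristem loci (homologs of WOX4, KNAT1, ANT, STM and LBD4), 4 fell in June/April by the wider rule (57.1%, against 4.23% of all loci). The summed linear level of the list was 20000 to 27900 in April, 10500 to 11500 in June and 9500 to 18000 in July. The 6 tested suberin loci had a median log2FC of 0.70 in June/April, and 1 of them rose by the wider rule (5.57% of all loci). The sum over the list was 612000 to 1210000 in April, 1180000 to 1400000 in June and 767000 to 966000 in July. Of 6 tested xylem loci, 4 (cellulose synthases of secondary walls) rose in July/April by the wider rule, against 6.31% of all loci. Of the 6, 1 had a negative July/April log2FC (-0.87). The paper proposes that such genes contribute to latecork, the thicker-walled cork of the late season. Xylem cells and latecork therefore cannot be told apart by these genes. The sum over the list was 994 to 2550 in April, 3100 to 5260 in June and 2570 to 19100 in July. For the 5 tested phloem loci, none past the wider rule, the sum was 4910 to 13300 in April, 19000 to 30300 in June and 5810 to 28200 in July. The linear level of the photosynthetic locus was between 0.482 and 0.497. The part of these cell types in the histone values was not tested.

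The 11 loci below the minimum were 6 of H2B, 1 of H3.1, 2 of H4, 1 of H2A.W and 1 of H2A.X. LOC112028736 (H4), with a mean rlog of 3.05, and LOC112022444 (H2B), with 2.62, lay just under the minimum, and LOC111988704 (H2A.W), with 3.59, and LOC112028725 (H3.1), with 3.76, just above it. LOC111988704 had 3.60 to 3.80 in June and 3.55 to 3.88 in July, against 3.37 to 3.46 in April. Both lie at the level at which rlog shrinks values.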

How the data were processed

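RNA was sequenced from the innercork of 11 trees. Per the submitters' processing notes and the study's methods, the authors checked reads with FastQC 0.11.5, trimmed them, removed ribosomal reads, mapped the rest with STAR 2.5.3a to the draft genome CorkOak1.0 and counted them per gene. The authors deposited log2 values, from the rlog transformation of DESeq2, in which counts are scaled by library and loci with few reads are shrunk toward their mean. Counts cannot be read back from them and read totals per sample were not used here, so precision was taken from the spread between trees (median residual SD 0.302).

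Month was the only factor of the linear model, fitted to the 11 trees together with limma 3.58.1 (R 4.3.3). Variances were moderated along a mean trend, with a prior of 2.38 degrees of freedom, and p-values adjusted by Benjamini-Hochberg over 22426 loci. The test was checked on simulated data.

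The members and lists were chosen with earlier results of these data known. Loci named were those called, the highest of each class, all H1 loci, the 3 highest and 3 lowest log2FC of each comparison, those next to the minimum and called loci of the lists; others named were chosen after their values were seen. A planned reading of classes from protein sequences was not made. The alternatives were other minimum levels, a pseudocount of 1, other normalizations, another variance prior, tree weights, fits of 2 months, a replicate block (by the title numbers and by the library codes), protein-coding loci and leaving out trees. Python 3.11.15 and matplotlib 3.10.9 drew the figures.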

Additional observations from a re-analysis of the deposited data

Results flagged for a closer look

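In groups of 4 trees, a tree was taken to lie apart where its gap to the nearest other tree filled nearly the whole range of its group. Of 56 groups examined (the April and July trees of each named locus), 4 had such a tree. For independent groups of normal values the rule gives about 1 in 20. These groups share the same trees, and loci were named partly for high or low values, so the count cannot be set against chance.

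For 3 H1 loci the tree was April replicate 2, which had the lowest weight of all trees in the limma weighting (0.26). LOC112035582 had an rlog of 13.91 in it, against 13.07 to 13.21 in the other April trees, LOC112023791 had 11.37, against 10.77 to 10.87, and LOC112024808 had 9.23, against 7.88 to 8.1. The 4th was LOC112022444, an H2B locus under the minimum level, with 3.04 in April replicate 1, against 2.33 to 2.4 in the other April trees.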

How the results depend on the processing

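No named locus that was called changed its direction under the 24 alternatives: of 1854 values of 28 named loci, 1756 kept their side of the thresholds, 54 lost and 44 gained a call, and 47 uncalled values changed sign. The number of histone loci called by the wider rule in June/April was 6 (11.8%, against 9.81% of all loci). It was 3 with no minimum level (4.84%, against 5.24%), 3 with median centring (5.88%, against 9.56%) and 3 with only the 2 months fitted (5.88%, against 8.39%). It was 17 with trees weighted by their fit (33.3%, against 30.1%) and 13 without April replicate 2 and July replicate 4 (25.5%, against 26.3%). With 1 tree left out it lay between 1 and 8, against 2.94 to 21.4% of all loci. In July/April 1 locus was called (1.96%, against 12% of all loci). The number was 2 with median centring (3.92%, against 11.6%), 2 over protein-coding loci (4.55%, against 15.7%) and 3 with only the 2 months (5.88%, against 7.57%). It was 13 with weights (25.5%, against 30.2%) and 12 without those 2 trees (23.5%, against 28.2%). With 1 tree left out it lay between 1 and 8, against 5.81 to 22.8% of all loci. DEGs in June/April, 0 in all other fits, were 2 with weights and 1 without those 2 trees, and in July/April they were 1 or, without June replicate 2, 2. Over all 22426 loci the June/April DEGs were 223 higher and 104 lower in the main fit. They were 628 and 678 with weights, and 532 and 656 without those 2 trees. In July/April without June replicate 2 they were 210 higher and 125 lower over all loci. July/June gave 0 by both rules in every fit.

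The June/April median of the replication-dependent loci (-0.457) was -0.258 with no minimum and between -0.633 (without June replicate 3) and -0.296 with 1 tree left out. For the variant loci (-0.103) it was 0.13 with weights, 0.143 without those 2 trees and between -0.142 and 0.143 with 1 tree left out. Of 144 medians, 139 moved by less than the spread between trees. That spread was 0.165 for the replication-dependent and 0.186 for the variant loci, about the size of the variant medians or larger. A change of sign could therefore count as unmoved, as for the variant June/April median without June replicate 1 (0.045). Some medians could not move, such as those of June/April when a July tree was left out. The cause of the differences between settings was not tested, beyond the fewer trees or loci that some settings use.

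With the replicate number as a block, the wider rule called 3 histone loci for June/April (5.88%, against 5.9% of all loci) and 2 for July/April (3.92%, against 10%). Same-numbered trees of different months deviated with a median correlation of 0.026 (-0.077 to 0.211 over 10 pairs), so they share only a number. These are the numbers of the titles. The library codes number the June trees 1, 3 and 4. With those numbers, a choice made after the data were seen, the median correlation was 0.028 (-0.077 to 0.211 over 10 pairs). By the wider rule this block called 5 histone loci for June/April (9.8%, against 9.77% of all loci). For July/April it called 1 (1.96%), against 1278 higher and 1085 lower calls among all 22426 loci.

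The number of trees limits these comparisons, since 3 or 4 trees of 1 harvest stand for each month.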
